A study of Rattus norvegicus with 63 samples.

Results

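The liver miRNAs of rats treated with cyproterone acetate (CPA) for 14 days were compared with those of rats given corn oil alone. The comparison used the 3 CPA rats and the 3 rats of corn oil control set 4, which the labels name as their control, and so 6 of the 63 arrays of the series. All 350 rat miRNAs on the array were considered, and the 162 that the scanner software detected on at least 1 of the 63 arrays were tested. CPA is 1 of 15 compounds of a series that relates early liver profiles to carcinogenic class, and CPA entered it with an undefined class.

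All rats were male Wistar Hanover rats aged 8 to 10 weeks, and they received the vehicle or the compound by gastric gavage in 5 ml per kg body weight each day. CPA was given at 100 mg/kg per day. Each dose group held 5 rats, and the 3 profiled here were picked on histopathological findings, so they are not a random draw. The day of sampling was also picked for each compound, as the day with the strongest mRNA deregulation in a preceding study. Rats given phenobarbital sodium (PB) for 14 days with their methylcellulose controls (set 6), and rats given 4 mg/kg per day of dimethylnitrosamine (DMN) or 146 mg/kg per day of C.I. Direct Black (CIDB) for 7 days with corn oil control set 3, serve as the compounds set beside CPA. The labels give no dose for PB, but the methods of the study state one. PB is a non-genotoxic liver carcinogen, and DMN and CIDB are genotoxic.

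CPA is a synthetic progestin that blocks the androgen receptor. In rat liver it is known as a mitogen for hepatocytes and as an inducer of drug-metabolising enzymes through the pregnane X receptor. A miRNA is a short RNA that lowers the output of the mRNAs it pairs with, mainly through its seed, bases 2 to 8 from the 5′ end, so miRNAs with the same seed share most of their targets. Many miRNAs are cut from a common transcript with their neighbours. The array read total liver RNA, and fewer cells of a type and less RNA per cell cannot be told apart in such values.

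The following mature sequences belong to the miRNAs with the clearest differences in CPA rats, with relatives that show which of them share a seed. They were taken from RefSeq (rat build GRCr8), in which 13 of the 15 miRNAs looked for were matched, and miR-99a and miR-335 are given by name only. The array gives names without the arm of the hairpin, and the arm was assigned here from current naming. Each is written 5′ to 3′ with the seed in capitals.
miR-29b: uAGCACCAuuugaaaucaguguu
miR-29c: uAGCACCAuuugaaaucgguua
miR-29a: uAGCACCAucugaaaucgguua
miR-96: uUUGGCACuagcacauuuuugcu
miR-212: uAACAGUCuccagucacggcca
miR-345-5p: uGCUGACCccuaguccagugc
miR-361: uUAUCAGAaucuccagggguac
miR-19b: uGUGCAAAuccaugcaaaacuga
miR-19a: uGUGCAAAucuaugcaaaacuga
miR-34a: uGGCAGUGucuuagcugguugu

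The miR-29 miRNAs have the seed AGCACCA in common. Counted from the 5′ end of miR-29c, miR-29a differs from it by U10C, and miR-29b by G18A, U21G and A22U and by an added last base. A probe for such a miRNA can take up some of its relatives, so the values of miR-29a, miR-29b and miR-29c are not fully separate measurements. miR-29b is encoded at chr4:60618342-60618364 (minus strand), next to miR-29a at chr4:60617968-60617989. A second copy lies at chr13:109098882-109098904 (plus strand), next to miR-29c at chr13:109099412-109099433, and both of these lie inside a long noncoding RNA gene. miR-96 lies at chr4:59755901-59755923 (minus strand) in the cluster with miR-182 and miR-183. miR-212 lies at chr10:60521811-60521832 (plus strand) beside miR-132, which has the same seed, AACAGUC. miR-361 lies at chrX:82438506-82438527 (minus strand) inside the protein-coding gene Chm.

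The 6 arrays lay on 1 of the 9 slides and were scanned on 1 of 3 scan days. The CPA rats took the first 3 positions on the slide and the controls the next 3, so position and treatment cannot be told apart. The scanner software marked all 6 arrays for evaluation. No spot was saturated, the median brightness was 202 to 208.5 units against 195 to 202 units on negative control spots, and the brightest spot reached 64590 units. Between 86 and 95 miRNAs were detected in CPA rats and between 82 and 90 in controls. The log2 levels of any 2 of the 6 arrays correlated across miRNAs with r from 0.990 to 0.999. Of the 162 tested miRNAs, 65 were well above background on all 6 arrays and 76 on none. Levels are log2 brightness after quantile normalization without background correction, so an undetected miRNA sits near 7.40 rather than at 0, and the fold changes of dim miRNAs come out smaller than those of the RNA. The hepatocyte miRNA miR-122 was the brightest of all, at 14.66 ± 0.03 (SD, n = 3) in CPA rats and 14.66 ± 0.01 in controls.

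CPA treatment was accompanied by higher miR-29b, miR-29c and miR-96 and by lower miR-99a and miR-19b, while the abundant miR-122 and miR-21 showed no called difference. The lower miR-99a was called in 13 and the lower miR-19b in 9 of 19 alternative settings. Of the 162 miRNAs tested, 9 (5.56%) were called at an adjusted p under 0.05 in limma, with 6 higher (3.7%) and 3 lower (1.85%) in CPA rats. At an unadjusted p under 0.05 there were 36 (22.2%). The log2 fold changes, taken as the mean of the CPA rats minus the mean of the controls, ran from -0.33 to 0.84 with a median of 0.0034, and 90 were above 0. The 3 CPA rats lay above all 3 controls in 26 miRNAs (16%) and below all 3 in 18 (11.1%). The split of higher and lower calls depended on how brightness was turned into values, with 5 and 5 after normexp background correction (6.17% of 162), 5 and 5 in the authors' value table (7.41% of its miRNAs) and 2 and 4 with the processed signal scaled by the 75th percentile of all probes. Scaled over the miRNAs detected on all arrays, the processed signal gave 15 calls (9.26%), 4 of them the same. A model on the 6 arrays alone also gave 9 calls, of which 4 were the same (miR-29b, miR-29c, miR-96 and miR-212), and without control rat 2 only 4 calls were left, all higher.

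**Figure D1:**
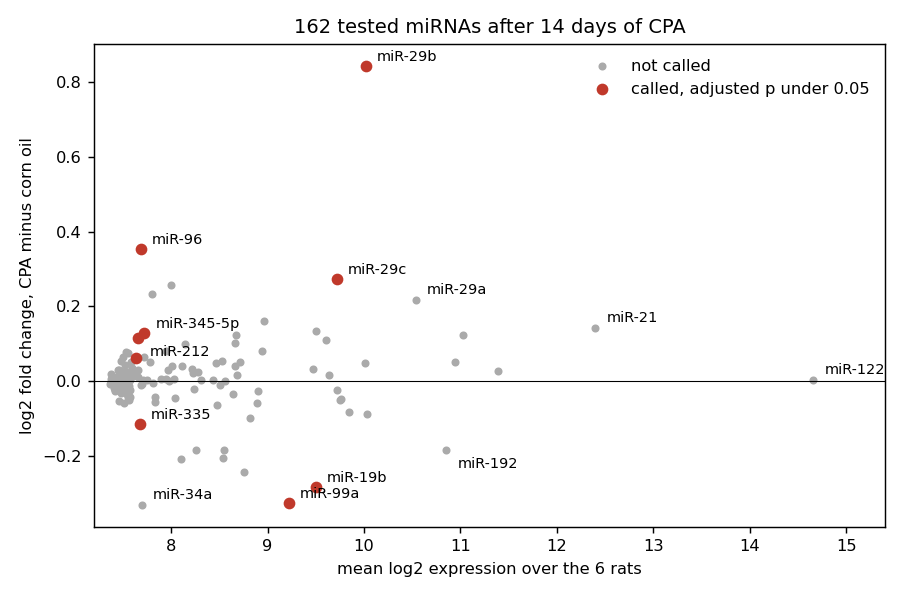
Each point is 1 of the 162 tested miRNAs, with the mean log2 level over the 6 rats on the horizontal axis and the log2 fold change of CPA against corn oil rats (n = 3 each) on the vertical axis. The 9 called miRNAs are in red, miR-29b stands highest at 0.84, and the bright miR-122 lies at 0.00.

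miR-29b showed the largest change. The miR-29 miRNAs are known to repress collagens and other matrix genes and DNA methyltransferases. The log2 level of miR-29b was 10.38, 10.42 and 10.53 in the CPA rats and 9.77, 9.50 and 9.52 in the controls. All 3 CPA rats lay well above the highest control. The log2 fold change was 0.84 (SE 0.13, adjusted p = 8.35e-06 in limma), a 1.79-fold rise. The background-subtracted brightness, before any normalization, was 1004, 1695 and 1192 units in the CPA rats and 677.5, 631.9 and 475.0 in the controls, and each of the 2 probes put all CPA rats above all controls. miR-29b was called in 18 of the 19 alternative settings, with log2 fold changes from 0.80 to 1.20.

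miR-29c had log2 levels of 9.85, 9.88 and 9.85 in the CPA rats and 9.69, 9.48 and 9.59 in the controls. The groups did not overlap, and miR-29c rose by 0.27 on the log2 scale (SE 0.07, adjusted p = 0.0108). Without control rat 2, the lowest of the controls, it was 0.22 and no longer called (adjusted p = 0.0949). The call was also lost with the processed signal scaled over all probes (adjusted p = 0.293) and with the replicate block (0.117). In all, 16 of 19 alternative settings kept it. In background-subtracted brightness, 1 of the 2 miR-29c probes put all CPA rats above all controls and 1 overlapped. miR-29a, the brightest of the family, had levels of 10.63, 10.65 and 10.66 in the CPA rats and 10.47, 10.42 and 10.39 in the controls. These did not overlap either, but the log2 fold change of 0.22 (SE 0.08) was not called (adjusted p = 0.113). It was called in 5 of 19 alternative settings, among them both models on the 6 arrays alone (adjusted p = 0.00545 and 0.00689). Of the 5 miR-29 miRNAs tested, including the opposite arms miR-29a* and miR-29c* at 0.0056 and -0.01, 2 were called higher (3.7% of all tested miRNAs were) and none lower, with a median log2 fold change of 0.22 against 0.0034 over all tested miRNAs. The summed level of the family was 12.03 to 12.10 on the log2 scale in CPA rats and 11.63 to 11.76 in controls.

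miR-96 was the miRNA with the smallest adjusted p. It is cut from the miR-183 cluster and is known to repress the transcription factor FOXO1. Its log2 level was 7.78, 7.88 and 7.93 in the CPA rats and 7.52, 7.50 and 7.50 in the controls. The controls were thus almost at the level of undetected miRNAs and every CPA rat stood above them. The log2 fold change was 0.35 (SE 0.05, adjusted p = 5.80e-07). miR-96 was detected in 3 of 3 CPA rats and 0 of 3 controls, and it was well above background in 2 CPA rats and in no control. The control level is therefore only a bound. With each control raised to the dimmest signal that was well above background on its own array, miR-96 was at least 1.20-fold higher in CPA rats, a bound from detection that leaves the spread of the rats out. The background-subtracted brightness was 32.4, 66.5 and 52.0 units in the CPA rats and 8.33, 12.2 and 8.48 in the controls. In the authors' value table the CPA rats had 5.42, 5.86 and 5.97 and the controls 3.38, 3.31 and 3.29, a difference of 2.42. The other cluster members, miR-182 and miR-183, were not detected on any array.

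**Figure D2:**
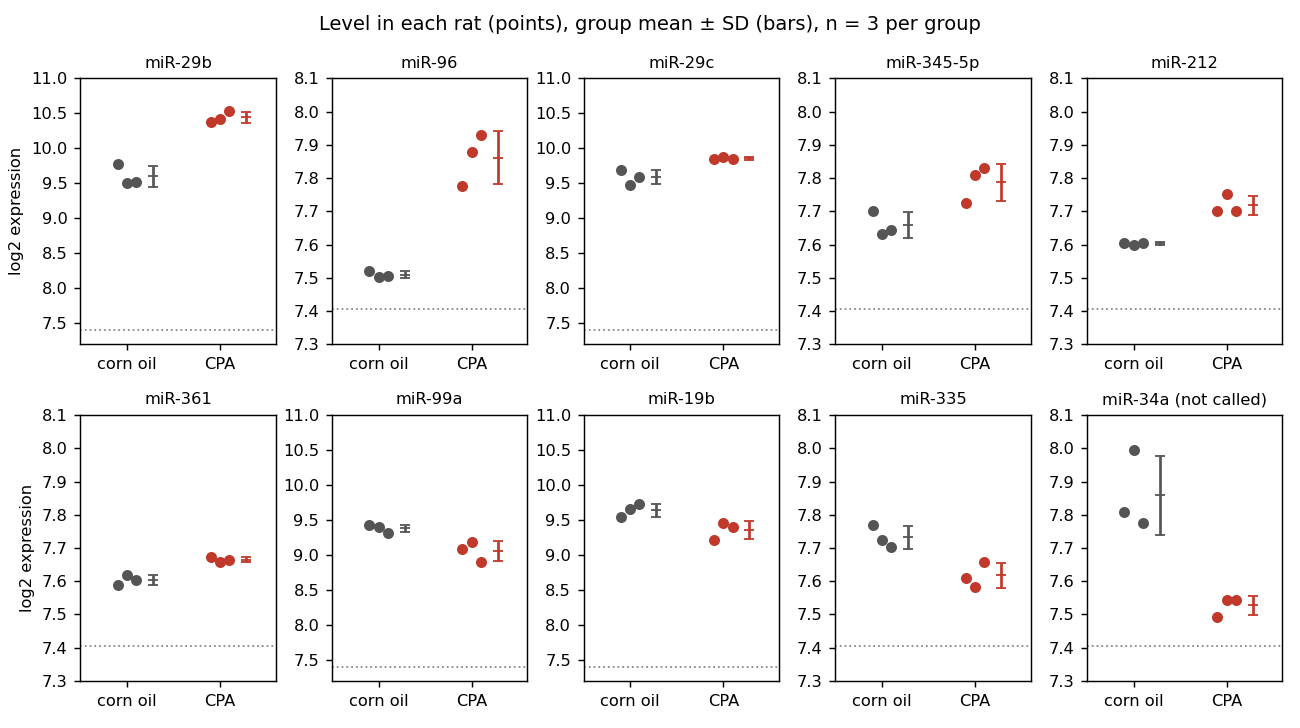
Log2 level of the 9 called miRNAs and of miR-34a in each of the 3 corn oil and 3 CPA rats (points), with the group mean and SD (bars) and the level of undetected miRNAs (dotted line, about 7.4). Vertical axes run from 7.2 to 11 for miR-29b, miR-29c, miR-99a and miR-19b and from 7.3 to 8.1 for the dim miRNAs, and in all 10 panels the groups do not overlap.

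The other 3 miRNAs called higher were dim. miR-212, which with miR-132 is known to be induced by CREB, had log2 levels of 7.70, 7.75 and 7.70 in the CPA rats and 7.60, 7.60 and 7.61 in the controls. The controls were close together and all lay below the CPA rats, and the log2 fold change was 0.12 (SE 0.03, adjusted p = 0.00188). It was well above background in 3 CPA rats and 1 control. The call was lost with the processed signal, at 1.74 and 1.56 under its 2 scalings (adjusted p = 0.613 and 0.821), and with the replicate block (adjusted p = 0.0788). miR-132 was not among the tested miRNAs.

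miR-345-5p had levels of 7.73, 7.81 and 7.83 in the CPA rats and 7.70, 7.63 and 7.64 in the controls. The lowest CPA rat was only just above the highest control, and the log2 fold change was 0.13 (SE 0.03, adjusted p = 0.00828). The call was lost without control rat 2 (0.12, adjusted p = 0.0650) and without CPA rat 3 (0.11, adjusted p = 0.0609). The processed signal lost it under both scalings (adjusted p = 0.613 and 0.821). So did both models on the 6 arrays alone (adjusted p = 0.0945 and 0.103). The background-subtracted brightness overlapped for both probes, and 11 of 19 alternative settings kept the call. miR-361 had levels of 7.67, 7.66 and 7.66 against 7.59, 7.62 and 7.60, and it rose by 0.06 (SE 0.02, adjusted p = 0.0188). This smallest of the called changes was not called without CPA rat 1 or 3 or without control rat 1 or 3, with adjusted p from 0.0525 to 0.106. Both scalings of the processed signal (adjusted p = 0.577 and 0.821) and both models on the 6 arrays alone (0.0595 and 0.0676) lost it too. In background-subtracted brightness 1 of the 2 miR-361 probes overlapped, and 8 of 19 alternative settings kept the call.

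Among the miRNAs called lower, miR-99a changed most. It is known to repress mTOR. Its log2 level was 9.08, 9.18 and 8.90 in the CPA rats and 9.43, 9.39 and 9.32 in the controls. All CPA rats lay below all controls, and miR-99a fell by 0.33 on the log2 scale (SE 0.09, adjusted p = 0.0132). It was not called without control rat 1 (adjusted p = 0.0611), control rat 2 (0.0650) or CPA rat 3 (0.112), and the change was then -0.30, -0.32 and -0.25. The background-subtracted brightness overlapped for both probes, CPA rat 2 being the brightest of the CPA rats, with 267.8, 485.6 and 248.8 units in the CPA rats and 498.5, 565.4 and 380.9 in the controls.

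miR-19b belongs to the clusters around miR-17 and miR-92, known as oncogenic miRNAs. It had log2 levels of 9.21, 9.46 and 9.40 in the CPA rats and 9.54, 9.65 and 9.73 in the controls. All CPA rats were below all controls, and it fell by 0.28 on the log2 scale (SE 0.08, adjusted p = 0.0324). Its call was lost without CPA rat 1 or 3 or control rat 2 or 3, with log2 fold changes from -0.30 to -0.21 and adjusted p from 0.0536 to 0.177. Both scalings of the processed signal and both models on the 6 arrays alone lost it too (adjusted p from 0.0995 to 0.306). The background-subtracted brightness overlapped for both probes, with 395.1, 758.5 and 493.3 units in the CPA rats and 614.7, 777.8 and 597.4 in the controls. The 10 tested miRNAs of these clusters held no other call and had a median of 0.0035. miR-19a, with the seed and the chromosome 15 transcript in common with miR-19b, had a log2 fold change of -0.02 (adjusted p = 0.965), and miR-17, miR-18a, miR-20a and miR-92a lay between -0.10 and 0.05. Among the measured members of that transcript, miR-19b alone was called, and whether its change differed from theirs was not tested. miR-335, which lies in an intron of the imprinted gene Mest, had levels of 7.61, 7.58 and 7.66 against 7.77, 7.72 and 7.70 and fell by 0.11 (SE 0.04, adjusted p = 0.0478). Leaving out CPA rat 1 or 2 or any control ended its call, with adjusted p from 0.0525 to 0.188.

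miR-34a, a direct target of p53 that genotoxic stress is known to induce, was not higher in the CPA rats. Its log2 level was 7.49, 7.54 and 7.54 in the CPA rats and 7.81, 8.00 and 7.77 in the controls. The CPA rats lay below all controls, but the log2 fold change of -0.33 (SE 0.12) was not called (adjusted p = 0.109). It was well above background in 0 of 3 CPA rats and 3 of 3 controls, and the bound from detection, which leaves the spread of the rats out, was at least 1.25-fold lower. Both probes placed all CPA rats below all controls, with 6.77, 17.3 and 12.9 background-subtracted units against 40.0, 77.5 and 30.1. In the authors' value table the difference was -2.05 (adjusted p = 5.63e-07), and 8 of 19 alternative settings called it lower while no setting put it higher. Its spread in the model came from all 63 arrays, and the model on the 6 arrays alone gave an adjusted p of 0.0365. The other 2 tested members of the family, miR-34b and miR-34c, had log2 fold changes of -0.03 and -0.02 and were not called.

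**Figure D3:**
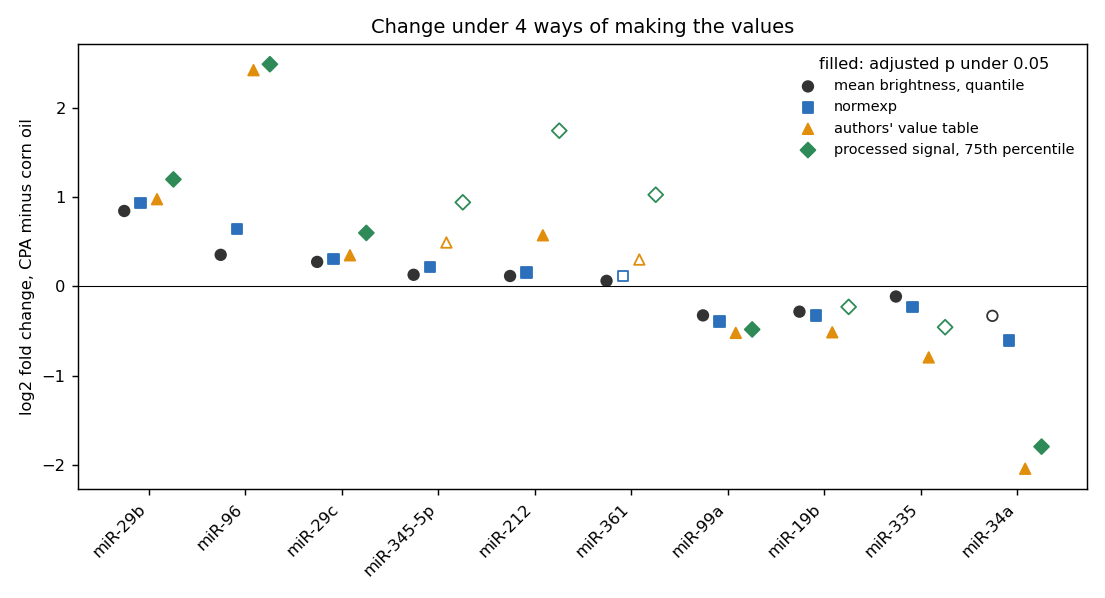
Log2 fold change of CPA against corn oil rats for the 9 called miRNAs and miR-34a under 4 ways of making the values, with filled symbols where the adjusted p was under 0.05. Directions were the same in all 4, the sizes of dim miRNAs such as miR-96 and miR-34a grew where background was subtracted, and miR-361 was called in only 1 of the 4.

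In the authors' value table, the changes of the other called miRNAs were larger in size than those from brightness without background correction. They were 0.57 for miR-212, 0.49 for miR-345-5p, 0.30 for miR-361, -0.52 for miR-99a, -0.52 for miR-19b and -0.80 for miR-335. miR-345-5p and miR-361 were not called there (adjusted p = 0.0542 and 0.0647). With the processed signal scaled over miRNAs detected on all arrays, miR-29c was at 0.60 beside a median of 0.13 over all miRNAs.

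The miR-200 family, which restrains epithelial-mesenchymal transition through ZEB1 and ZEB2, had positive log2 fold changes in 5 of 5 tested members, but none was called. miR-200b had log2 levels of 7.74, 7.97 and 8.03 in the CPA rats and 7.59, 7.78 and 7.67 in the controls. CPA rat 1 lay inside the control range, and the log2 fold change was 0.23 (SE 0.09, adjusted p = 0.114). miR-429 and miR-200a had 0.08 (adjusted p = 0.109) and 0.12 (adjusted p = 0.139). miR-429 was called without CPA rat 1 (0.11, adjusted p = 0.0250). miR-200b was at 1.04 in the authors' value table (adjusted p = 0.0587), and at 1.29 and called with the processed signal scaled over miRNAs detected on all arrays (adjusted p = 0.0258). None of the family was well above background on all 6 arrays. The median of 0.08 stands beside 0.0034 over all tested miRNAs.

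None of the 4 tested hepatocyte miRNAs was called in the model over all arrays. miR-122 had log2 levels of 14.65, 14.70 and 14.64 in the CPA rats and 14.67, 14.65 and 14.65 in the controls, a difference of 0.00 (SE 0.03, adjusted p = 0.987) whose sign turned in 5 of 19 alternative settings. miR-192 lay at 10.82, 10.72 and 10.75 against 10.90, 10.97 and 10.97, a difference of -0.19 (SE 0.07, adjusted p = 0.109) that turned to 0.03 with the processed signal scaled over miRNAs detected on all arrays. That scaling moved the median of all miRNAs by 0.13, and miR-192 was not called under it (adjusted p = 0.956). Whether miR-192 was lower relative to that median was not tested. Both models on the 6 arrays alone called miR-192 lower, at -0.19 and -0.16 (adjusted p = 0.0365 and 0.0195). The oncogenic miR-21 had levels of 12.47, 12.55 and 12.40 in the CPA rats and 12.34, 12.40 and 12.24 in the controls. The groups touched, and its log2 fold change was 0.14 (SE 0.08, adjusted p = 0.370). miR-195 had -0.24 (SE 0.11, adjusted p = 0.141), with CPA rat 1 inside the control range.

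Since CPA acts on the androgen receptor, miRNAs known as androgen-responsive in prostate cells were read as a group. Of 8 tested, 1 was called lower, miR-99a (1.85% of all tested miRNAs were), and none higher, with a median of -0.02 beside 0.0034. The group was not split into miRNAs raised and miRNAs lowered by androgen, and an androgen effect was not tested. miR-125b-5p, which is related to miR-99a through shared clusters, had -0.21 (adjusted p = 0.109) with all CPA rats below all controls, and miR-100 had -0.05 (adjusted p = 0.113). miR-221 missed the threshold most narrowly of all tested miRNAs, at -0.06 (SE 0.02, adjusted p = 0.0608), and was not well above background on any of the 6 arrays. Of the 7 tested members of the miR-99, miR-100 and miR-125 families, 6 had negative values, as did 72 of all 162, and 1 was called (5.56% of all).

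**Figure D4:**
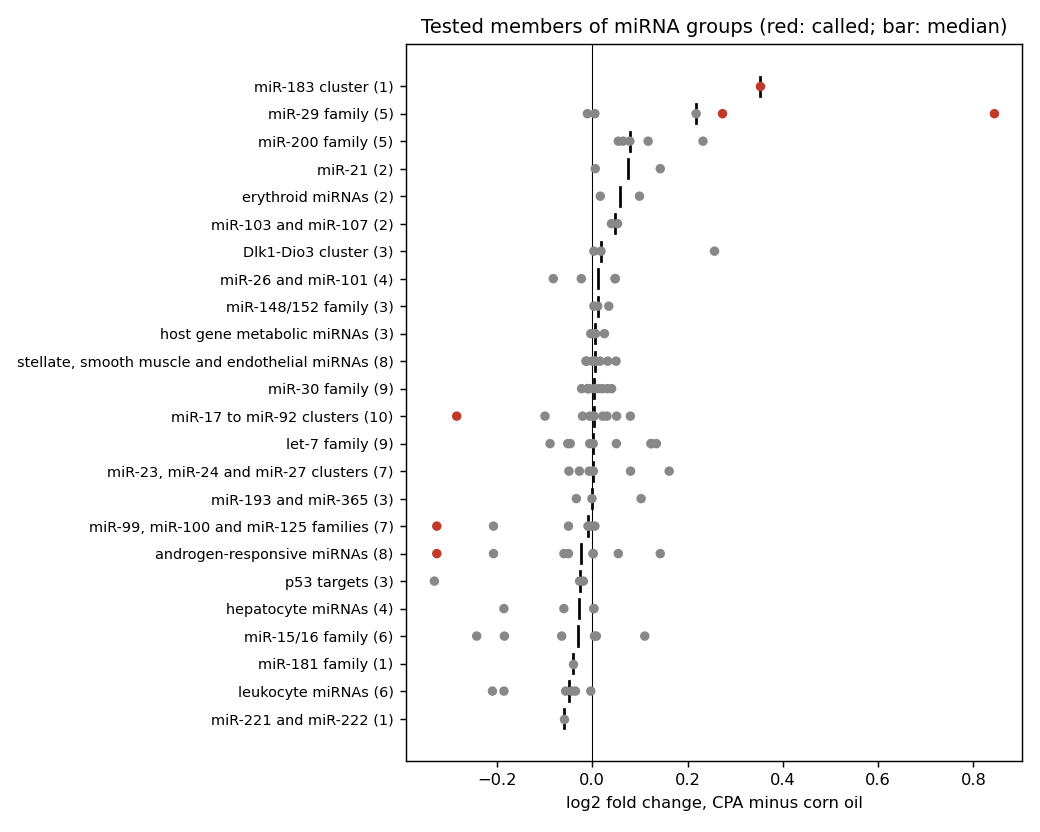
Log2 fold change of CPA against corn oil rats for each tested member of 24 miRNA groups, 1 group per line with its number of members, called members in red and the group median as a black bar. The miR-29 and miR-200 families lie to the right and the leukocyte miRNAs to the left, and 19 of the 24 groups hold no called member.

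Markers of cells other than hepatocytes were read beside these results. All 6 tested leukocyte miRNAs had negative log2 fold changes (median -0.05) and none was called, and 3 of them were well above background on all 6 arrays. Their summed level was 10.35 to 10.37 on the log2 scale in CPA rats and 10.45 to 10.48 in controls, without overlap. miR-142-3p, which is made in blood cells, had 8.13, 8.17 and 8.19 in the CPA rats and 8.37, 8.35 and 8.33 in the controls, a difference of -0.19 (SE 0.12, adjusted p = 0.395). miR-146a, induced by NF-kB, had 7.98, 8.03 and 7.98 against 8.19, 8.19 and 8.23, a log2 fold change of -0.21 (adjusted p = 0.109). The part of leukocytes in the lower miR-99a and miR-19b was not tested. The red blood cell miRNAs miR-144 and miR-451 had 0.10 and 0.02, and their summed levels overlapped (9.95 to 10.20 against 9.91 to 10.29). Markers of vessel and mesenchymal cells had a median of 0.0060 over 8 tested, none called, with miR-126 at 0.03.

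The remaining groups held no call. The let-7 family had a median of 0.0021 over 9 tested miRNAs, its brightest member let-7f being at 0.12 (adjusted p = 0.323). The miR-30 family (9 tested) lay between -0.02 and 0.04. The clusters of miR-23, miR-24 and miR-27 (7 tested) had a median of 0.0018, with miR-27b at 0.16 and all CPA rats above all controls (adjusted p = 0.113). miR-16, miR-26a, miR-107, miR-365, miR-378 and miR-148b-3p, the brightest members of their groups, lay between 0.0034 and 0.11 with adjusted p from 0.386 to 0.987. miR-494 of the Dlk1-Dio3 cluster had 0.26 (SE 0.24, adjusted p = 0.659), with CPA rat 3 at 8.46 and the other two at 7.94 and 7.96.

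The response to CPA was next set against that to PB, DMN and CIDB, each relative to its own controls, to ask where it differed from a non-genotoxic and from genotoxic liver carcinogens. PB was given in another vehicle, and DMN and CIDB for a shorter time, so compound, vehicle and time cannot be told apart. Slide differed as well, with all DMN rats on 1 slide and their controls on another, the PB rats on 2 slides that held none of their controls, and the CIDB rats on 3 slides, of which 1 held their controls. A single PB and a single CIDB array were scanned on another day than their controls. DMN and CIDB share their 3 control rats. The difference between 2 responses was tested directly in limma. Against PB, 1 of 162 miRNAs (0.617%) was called, against DMN 27 (16.7%) and against CIDB 18 (11.1%).

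The single difference from PB was miR-212, with a log2 fold change of 0.12 in CPA and -0.03 in PB. The difference was 0.14 (SE 0.04, adjusted p = 0.0423), and it was not called without CPA rat 2 (adjusted p = 0.146), control rat 2 (0.117) or control rat 3 (0.0883). With slide as a block it was 0.09 (adjusted p = 0.625), and the call was also lost in the authors' value table, with the processed signal, with normexp and on the first scan day alone (adjusted p from 0.0838 to 0.724), so that 4 of 12 alternative settings kept it. miR-96 was called higher in both, at 0.35 in CPA and 0.19 in PB (adjusted p = 0.00929), with a difference of 0.16 (95% interval 0.02 to 0.30, adjusted p = 0.364). miR-29b was at 0.84 in CPA and 0.17 in PB, and the difference of 0.67 (95% interval 0.30 to 1.05) was not called (adjusted p = 0.0675). miR-200b was at 0.23 in CPA and 0.48 in PB, where it was called, with a difference of -0.25 (95% interval -0.52 to 0.01, adjusted p = 0.572). PB gave 5 calls of its own (3.09%), 4 of them higher (2.47%). These intervals are wide against the changes, so the 2 responses were not shown to be alike.

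DMN and CIDB differed from CPA first in miR-34a. It was at -0.33 in CPA, at 1.96 in DMN and at 3.44 in CIDB, and the difference of CPA from DMN was -2.30 (SE 0.17, adjusted p = 8.02e-15) and from CIDB -3.77 (SE 0.17, adjusted p = 5.60e-23). Levels did not overlap, with CPA rats at 7.49 to 7.54, DMN rats at 9.65 to 9.96 and CIDB rats at 11.23 to 11.46. The CPA level was well above background in no rat. With it held at the bound from detection, the response to CPA was 4.89-fold lower than that to DMN and 13.6-fold lower than that to CIDB. This bound leaves the spread of the rats out, and without control rat 2 the log2 differences were -2.23 and -3.70. In the authors' value table the differences were -5.81 and -7.69, and with the processed signal -5.73 and -7.89. All 3 tested miR-34 miRNAs had a lower response in CPA than in DMN, and miR-34a and miR-34b than in CIDB. Against PB, none of the 3 differences was called. With DMN, 14 differences were higher (8.64%) and 13 lower (8.02%) in CPA. Leukocyte miRNAs made up 5 of the lower ones, among 6 tested. Markers of vessel and mesenchymal cells made up 4 of the higher ones, among 8 tested. The clusters of miR-23, miR-24 and miR-27 held 3 of the higher ones, among 7 tested. miR-142-3p was at -0.19 in CPA and 0.76 in DMN, a difference of -0.94 (adjusted p = 1.82e-05), miR-146a at -0.21 and 0.49, a difference of -0.69 (adjusted p = 5.46e-06), and miR-15b at -0.06 and 0.49, a difference of -0.55 (adjusted p = 1.83e-05). In the value table these 3 differences were -1.75, -1.67 and -0.98, and with the processed signal -1.91, -1.78 and -1.16. With slide as a block, 2 higher and 11 lower differences from DMN were called. Most of the higher differences in the vessel and mesenchymal markers and the miR-23, miR-24 and miR-27 clusters thus lost their call.

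The differences from CIDB were 10 higher (6.17%) and 8 lower (4.94%). miR-21 was at 0.14 in CPA and 0.70 in CIDB, a difference of -0.55 (SE 0.12, adjusted p = 0.00114) that was -1.10 in the value table and -1.24 with the processed signal. miR-19b was at -0.28 and 0.18, a difference of -0.46 (adjusted p = 0.00618), or -0.94 in the value table and -0.77 with the processed signal. miR-26a was at 0.05 and -0.35, a difference of 0.39 (adjusted p = 0.00823) that was not called with the processed signal (0.32, adjusted p = 0.0512). The hepatocyte miRNAs miR-122 and miR-192 were at 0.00 and -0.19 in CPA and at -0.33 and -0.50 in CIDB, and both differences were called (0.33 and 0.31, adjusted p = 3.49e-07 and 0.0243). The split between higher and lower was 3 and 9 with the processed signal and 5 and 11 in the authors' value table, and the median difference over all miRNAs was then -0.21 and -0.09 in place of -0.01.

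Of the 9 miRNAs called in CPA rats, 6 differed from the response to DMN (16.7% of all tested miRNAs did), namely miR-29b, miR-29c, miR-96, miR-212 and miR-345-5p with a higher and miR-335 with a lower response to CPA. With slide as a block, only 2 higher differences from DMN were called among all tested miRNAs, against 14 without it. Most of the higher differences named here therefore lost their call under that block. From CIDB, 3 differed (11.1% of all), namely miR-96, miR-361 and miR-19b. The same CPA and control values stand in both tests, so these counts do not stand apart from the calls in CPA. miR-96 was at -0.02 in DMN and 0.04 in CIDB, and its differences of 0.38 and 0.31 had adjusted p of 2.76e-05 and 0.00114, although it was well above background in none of the DMN rats and their controls and in 1 CIDB rat. miR-29b was at 0.31 in DMN and 0.38 in CIDB, and its difference was called with DMN (0.53, adjusted p = 0.0455) and not with CIDB (0.46, 95% interval 0.09 to 0.84, adjusted p = 0.0976). miR-99a was lower in all 3, at -0.33 in CPA, -0.25 in DMN and -0.27 in CIDB, each of them called, where DMN gave 38 calls (23.5%) and CIDB 33 (20.4%), with a difference of -0.08 from DMN (95% interval -0.32 to 0.17) and -0.05 from CIDB (-0.30 to 0.19).

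**Figure D5:**
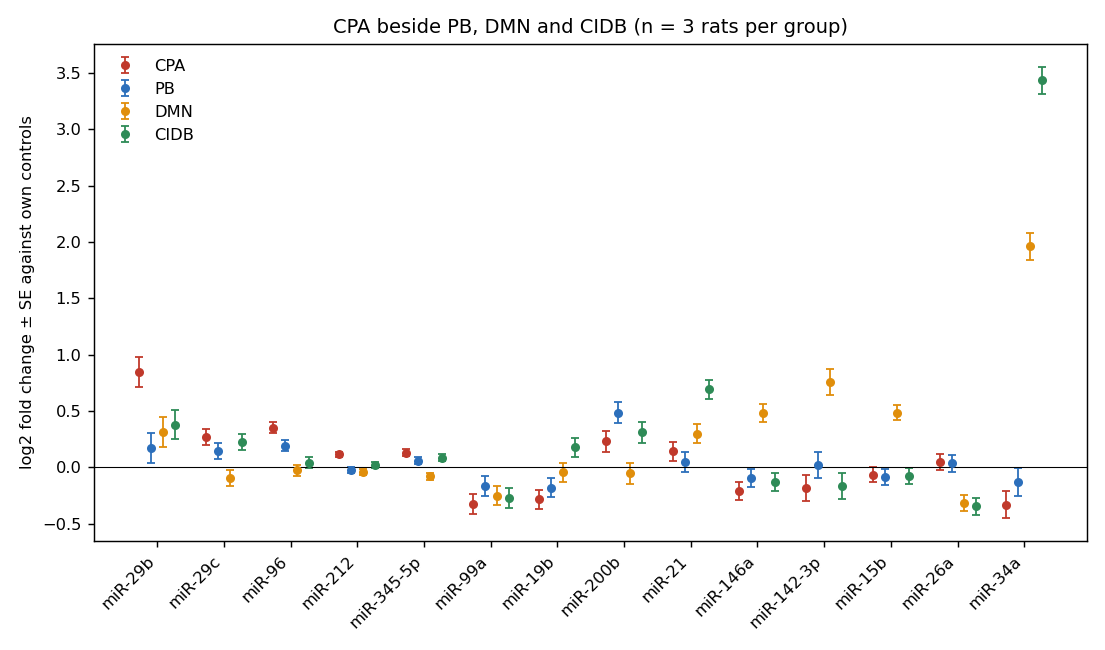
Log2 fold change ± SE of 14 miRNAs in CPA, PB, DMN and CIDB rats, each against its own 3 controls. CPA stands highest for miR-29b and miR-96 and lowest for miR-34a, where DMN and CIDB reach 1.96 and 3.44.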

How the data were processed

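Total liver RNA of each rat had been hybridised to a single-colour Agilent rat miRNA array. Per the file headers, the deposited scanner files hold the spot intensities read by Agilent Feature Extraction 10.7.3.1, as mean brightness, local background, a background-subtracted processed signal and detection marks. The authors also deposited a value table of normalized log2 values for 135 miRNAs. RMA without a background step is what the methods state, and whether background was subtracted in the table is unknown. Its columns for the 6 rats had medians of 4.67 to 5.01 and followed their own arrays (r from 0.826 to 0.902 across miRNAs, over differences from the mean of each miRNA).

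Values were made here from mean brightness without background correction, leaving out controls and the 2.34 to 3.20% of spots flagged as outliers. The arrays were quantile normalized over all 63, the spots of a probe averaged, and median polish of the log2 values combined the 1 to 4 probes of a miRNA. miRNAs detected on no array (188 of 350) were left out. A miRNA counts as well above background where the scanner software so marked the majority of the spots of any of its probes. Background-subtracted brightness is the mean processed signal over its spots, and a summed level is the log2 of the sum of its members' unlogged levels. Groups follow the labels. limma 3.58.1 (R 4.3.3) tested fold changes and differences between them, with 21 groups over the 63 arrays and no covariate, with the Benjamini-Hochberg adjustment over 162 miRNAs. Only the limma test of CPA against its controls was tried on simulated data, drawn as miRNA values. Spot filtering, normalization and the combining of probes were not tested that way. The number of arrays limits the precision, and each sample is a separate rat.

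The text names the called miRNAs whose groups did not overlap, called or brightest members of 24 lists, the miRNAs that the study names, miR-122, miR-192 and miR-21, and the 4 largest called differences from each other compound. Others that stand beside these (miR-29a, miR-200a, miR-19a and its cluster, miR-100, miR-125b-5p, miR-221, miR-27b, miR-146a, miR-144, the opposite arms and further compared miRNAs) were chosen after their values were seen. Members and lists were chosen with earlier results of these data known. The alternatives were the processed signal scaled by its 75th percentile, taken over all probes or over those of miRNAs that every array detected, normexp with an offset of 50, the value table, a model or normalization on the 6 arrays, other detection filters, slide as a block, both corn oil control sets as reference, replicate number as a block and leaving out each of the 6 CPA and control set 4 rats. No rat of the other groups was left out in turn. The arrays of the first scan day alone, and normexp for the differences between compounds, were chosen after seeing the data.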

Additional observations from a re-analysis of the deposited data

Results flagged for a closer look

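The direct tests of the difference between responses gave these results. The response to CPA differed from that to PB in 1 miRNA, from that to DMN in 27 and from that to CIDB in 18. Against PB the difference was 0.14 for miR-212 on the log2 scale. Against DMN, the differences were -2.30 for miR-34a, -0.94 for miR-142-3p, -0.69 for miR-146a and -0.55 for miR-15b. They were -3.77 for miR-34a, -0.55 for miR-21, -0.46 for miR-19b and 0.39 for miR-26a against CIDB. Groups of 3 rats are too small for a test for single deviating rats.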

How the results depend on the processing

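For CPA against its controls, the 9 calls became 15 (10 higher, 5 lower) with the processed signal scaled over miRNAs detected on all arrays, which moved the median of all miRNAs by 0.13, and 17 (10 and 7) with both corn oil control sets. They ranged from 4 to 8 when 1 of the 6 CPA and control rats was left out, and the 4 were left without control rat 2. After normalization, the deviations of rats with the same replicate number correlated at -0.226, -0.159 and -0.21. Normalization removes differences common to a whole array, so these values cannot decide whether replicate numbers pair the rats. Before it, rat 2 had the brightest spot in both groups. The model with replicate number as a block gave 0 calls in limma (32 at an unadjusted p under 0.05). Its residual spread rests on few degrees of freedom. Calls for the difference from PB numbered 4 with the processed signal, and 0 in the value table, with arrays of the first scan day only and with normexp (15, 12 and 13 at an unadjusted p under 0.05). They were 0 to 2 with 1 of the same 6 rats left out, 0 without control rat 2 or 3 or CPA rat 2 and 2 without control rat 1. With slide as a block, the single call was another miRNA, lower in CPA. The difference from DMN gave 13 calls with slide as a block, 12 of them among the 27, and 21 to 28 with 1 of the same 6 rats left out. No PB, DMN or CIDB rat or control of these was left out. For CIDB, every alternative run gave 12 to 20 calls in place of 18. miR-122 turned from 0.00 to -0.10 and -0.29 with the processed signal scaled over detected miRNAs and over all probes, -0.12 in the value table, and -0.00027 and -0.014 without control rat 2 and CPA rat 2, within a range of -0.014 to 0.013 over the rats left out. miR-192 turned to 0.032 under the first of these scalings. miR-96 and miR-29b were called in every alternative except the replicate block (adjusted p = 0.0635 for both). Other causes of these shifts were not tested. Signal over background limits the dim miRNAs.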
